A study of Mus musculus with 36 samples.

Results

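The liver response to lipopolysaccharide (LPS, the outer membrane component of Gram-negative bacteria) was examined 24 h after injection in C57BL6/J mice, a common inbred laboratory strain, kept at an ambient temperature of 30 °C. Of the 36 liver libraries in the series, 10 belong to this comparison by their labels for temperature and time: 5 taken at 0 h and 5 taken 24 h after LPS, all at 30 °C. The other libraries come from 4 h and 12 h at 30 °C and from the same times at 22 °C. Of those, the comparisons below use the 4 taken at 12 h at 30 °C and, at 22 °C, the 4 taken at 0 h and the 5 taken at 24 h. The labels used here state no sex, age or dose of LPS. No group at 24 h without LPS is named in the labels, so LPS, the injection, time of day and feeding since 0 h cannot be told apart. The labels do not say that each library is a separate animal. The p-values and standard errors come from a joint fit to all 36 libraries. They therefore measure the spread between libraries pooled over every group, including groups that are not compared. Libraries of those other groups enter only that fit and a figure of time courses.

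At temperatures near 30 °C a mouse spends little energy on keeping warm, whereas ordinary room temperature is a mild cold load. LPS is bound by LBP and CD14 and sensed by Toll-like receptor 4, mainly on macrophages, which in the liver are the Kupffer cells. The cytokines they release, IL-6, IL-1 and TNF among them, act on hepatocytes, which then make acute phase proteins and make less of many carrier proteins, drug-metabolising enzymes and bile acid transporters. Interferons released in the same response induce antiviral genes, usually for a short time.

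RNA from whole liver was sequenced at transcript 3' ends with a CEL-Seq2 protocol adapted to tissue. Values are the authors' scaled reads per base, called signal here, which is normalized between libraries and is not a read count. Groups are given as mean ± SD over 5 libraries (4 at 12 h, and at 0 h for 22 °C), and log2 differences, 24 h minus 0 h of log2(signal + 1), as estimate ± SE, so that changes of genes with low signal are understated. Estimated depth moved with the comparison: it was 557000 to 830000 reads per library at 0 h and 710000 to 2295000 at 24 h. Signal worth 3 reads was 3.45 to 5.05 at 0 h and 1.51 to 4.35 at 24 h. Pearson's r of log2(signal + 1) across genes was 0.835 to 0.932 between libraries of one group and 0.698 to 0.828 between the groups; genes are not independent replicates. The library of 0 h replicate 3 stood furthest apart, with r of 0.835 to 0.852 to the other 0 h libraries, which among themselves had 0.892 to 0.904. Hepatocyte markers were abundant in both groups: albumin (Alb), for example, stood at 2735 ± 251 at 0 h and 971 ± 242 at 24 h. In whole tissue, fewer cells of a type and less RNA per cell cannot be told apart.

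At 24 h, 1332 of the 8702 genes tested were higher than at 0 h and 1252 were lower, which is 15.3% and 14.4% of them and 29.7% together (limma, Benjamini-Hochberg adjusted p under 0.05 over all genes tested). Of these, 779 higher and 855 lower genes differed by more than 1 on the log2 scale, and the median over all genes was -0.03. Without the 3 deepest 24 h libraries, a choice made after seeing the data, 822 genes were higher and 868 lower. Without 0 h replicate 3, 1172 were higher and 1036 lower. Counts of list members called at 24 h against 0 h stand against the 15.3% higher and 14.4% lower among all genes.

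Serum amyloid A genes Saa2 and Saa1, whose products are apolipoproteins of the acute phase, rose most among the genes whose higher group averaged 20 or more. Saa2 rose from 214 ± 101 to 25411 ± 4221 (log2 difference 7.02 ± 0.20) and Orm2, an orosomucoid gene (chr4:63362449-63365878, plus strand, GRCm38), from 21.4 ± 8.32 to 1935 ± 415 (log2 difference 6.48 ± 0.24). Lcn2, whose product lipocalin 2 binds bacterial siderophores and so withholds iron (chr2:32384633-32388252, minus strand), had signals of 59.5, 73.6, 71.1, 22.2 and 80.8 at 0 h and 3985, 3603, 3808, 2631 and 5649.6 at 24 h. Every 24 h library stood far above every 0 h library for Lcn2, and the log2 difference was 6.06 ± 0.21. Apoa4, a lipoprotein component (chr9:46240696-46243459, plus strand), rose from 20.6 ± 6.39 to 1358 ± 533 (log2 difference 5.96 ± 0.24). A2m, the protease inhibitor alpha-2-macroglobulin, Sult1e1, an oestrogen sulfotransferase, and Serpina3n, a protease inhibitor, were also among the 12 largest rises, with log2 differences of 5.06 ± 0.39, 4.90 ± 0.40 and 4.64 ± 0.15. The 0 h means of A2m and Sult1e1 lay under the signal of 3 reads, so the sizes of their differences depend on the pseudocount.

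Car3, a carbonic anhydrase (chr3:14863512-14872523, plus strand), showed the largest fall. Its signals were 5903, 7016, 6878, 5512 and 3671 at 0 h and 8.52, 8.88, 9.51, 7.07 and 12.5 at 24 h. The groups lay far apart, with a log2 difference of -9.12 ± 0.34 (adjusted p = 3.9e-21). Inmt, an indolethylamine N-methyltransferase, fell from 322 ± 96.0 to 1.71 ± 1.20 (log2 difference -6.94 ± 0.35), Serpina6, the corticosteroid-binding globulin of plasma, from 176 ± 73.3 to 1.83 ± 0.803 (log2 difference -5.92 ± 0.34), and Gamt, which makes creatine, from 132 ± 26.0 to 1.72 ± 1.35 (log2 difference -5.77 ± 0.37). The 24 h means of these 3 genes lay in the range worth about 3 reads, so the sizes of the falls depend on the pseudocount. Hao2, a peroxisomal hydroxyacid oxidase, had 52.9, 108, 60.6, 50.2 and 42.7 at 0 h and was listed at 0 in all 5 libraries at 24 h. Hsd17b6 and Akr1c6, enzymes of steroid metabolism, fell too, with log2 differences of -5.49 ± 0.35 and -5.46 ± 0.53. Rgn, a calcium-binding lactonase, had -5.25 ± 0.45 and Gstm3, a glutathione transferase, -5.34 ± 0.52, with a 24 h mean of Gstm3 under 3 reads.

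**Figure D1:**
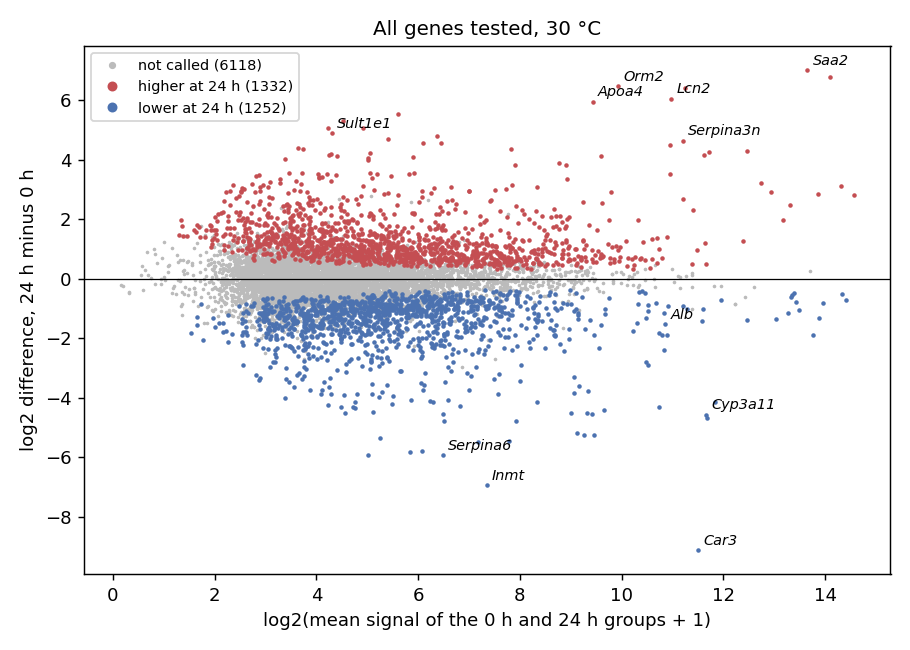
Log2 difference between 24 h and 0 h at 30 °C against the log2 mean signal of both groups, 1 point per gene tested. Red points are the 1332 genes called higher at 24 h, blue points the 1252 called lower and grey points the rest; Saa2 lies highest and Car3 lowest.

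Acute phase proteins rose nearly as a whole. Of 29 listed genes, all of which passed the filter on low values, 27 were higher and 0 lower (0 at an unadjusted limma p under 0.05) at 24 h, with a median log2 difference of 2.93, against -0.03 over all genes. Their summed signal was 17768 to 26292 per library at 0 h and 214477 to 294532 at 24 h, with no overlap. Saa1, at chr7:46740497-46742980, minus strand (GRCm38), gave 269, 378, 556, 158 and 306 at 0 h and 33979, 37211, 29181, 29999 and 43060.5 at 24 h. The 0 h libraries varied several-fold among themselves, but the lowest 24 h library still stood more than an order of magnitude above the highest of them (log2 difference 6.80 ± 0.19, adjusted p = 1.7e-24). Saa3, which is expressed in macrophages and other cells as well as in hepatocytes, rose from 59.3 ± 26.3 to 4769 ± 913 (log2 difference 6.41 ± 0.28) and Orm1 from 535 ± 23.2 to 10726 ± 1624 (log2 difference 4.31 ± 0.11). Reads of Saa1 and Saa2, and of the Orm and Serpina3 genes, may be divided between near-identical copies, so levels of single members are uncertain.

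Several iron, haem and metal-binding protein genes rose as well. Haptoglobin (Hp), which binds free haemoglobin, rose from 313 ± 41.1 to 3645 ± 849.9 (log2 difference 3.52 ± 0.14), and haemopexin (Hpx), which binds haem, from 1333 ± 258 to 12371 ± 1107 (log2 difference 3.23 ± 0.15). Metallothionein 2 (Mt2), a zinc-binding protein, rose from 164 ± 43.8 to 3788 ± 1217 (log2 difference 4.51 ± 0.21). Hepcidin (Hamp), the hormone that blocks iron export, rose from 196 ± 77.2 to 639 ± 222 (log2 difference 1.77 ± 0.29), whereas its paralog Hamp2 fell from 1082 ± 354 to 29.6 ± 13.6 (log2 difference -5.19 ± 0.40). Of the 27 (of 29 listed) genes of the wider list that were tested, 12 were higher and 4 lower at 24 h, with a median log2 difference of 0.34.

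The promoter windows of the Saa genes are shown because these genes rose together; they run from 250 bases before to 50 after the start, from RefSeq on GRCm38.p6. Capitals mark the motif of the C/EBP transcription factors (TTNNGCAA), searched on both strands and found once in each. The windows are chr7:46742931-46743230, minus strand for Saa1, chr7:46751583-46751882, plus strand for Saa2 and chr7:46715627-46715926, minus strand for Saa3.
Saa1: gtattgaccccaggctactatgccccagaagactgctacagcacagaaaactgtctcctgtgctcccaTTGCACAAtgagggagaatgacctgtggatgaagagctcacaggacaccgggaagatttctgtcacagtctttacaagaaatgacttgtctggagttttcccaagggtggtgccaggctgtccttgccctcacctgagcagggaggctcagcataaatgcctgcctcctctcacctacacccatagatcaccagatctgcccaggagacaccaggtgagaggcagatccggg
Saa2: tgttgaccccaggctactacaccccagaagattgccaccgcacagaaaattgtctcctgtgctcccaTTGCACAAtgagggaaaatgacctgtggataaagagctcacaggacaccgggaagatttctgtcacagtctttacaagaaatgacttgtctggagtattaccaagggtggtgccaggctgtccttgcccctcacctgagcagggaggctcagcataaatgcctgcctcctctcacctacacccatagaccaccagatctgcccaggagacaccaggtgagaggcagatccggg
Saa3: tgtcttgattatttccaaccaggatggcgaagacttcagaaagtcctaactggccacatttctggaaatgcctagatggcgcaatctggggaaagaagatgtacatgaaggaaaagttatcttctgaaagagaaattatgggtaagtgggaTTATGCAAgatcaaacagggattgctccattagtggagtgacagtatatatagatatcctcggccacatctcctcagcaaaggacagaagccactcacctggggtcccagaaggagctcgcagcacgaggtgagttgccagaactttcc

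Windows were found for 22 of the 29 acute phase genes, 25 windows in all, and 12 of them (48.0%) held the C/EBP motif. This compares with 10.8% of all 32851 windows and 9.2% of the 8482 windows of genes tested. A gamma interferon activation site motif (GAS, TTCNNNGAA, both strands), an element of interferon gamma-responsive genes, was in 28.0% of the acute phase windows. It was in 8.3% of all windows and 6.9% of those of genes tested. The motif letters come from general knowledge and from none of the files; other motifs were also searched and are not reported here. Both motifs may overlap, and a match describes these letters only.

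Complement and clotting factors, most of them made by hepatocytes, included genes that rose and genes that fell. Of the 26 (of 30 listed) complement genes tested, 10 were higher and 4 lower at 24 h, with a median log2 difference of 0.27; the share lower is close to the 14.4% lower among all genes. C3, the central component, rose from 520.0 ± 102 to 1184 ± 404 (log2 difference 1.16 ± 0.17) and Serping1, the C1 inhibitor, from 834 ± 231 to 1918 ± 434 (log2 difference 1.22 ± 0.16). C5ar1, the receptor for C5a on myeloid cells, rose from 0.47 ± 1.04 to 10.9 ± 3.12 (log2 difference 3.19 ± 0.48), from a 0 h mean under 3 reads. Mbl2, a mannose-binding lectin, fell from 1093 ± 343 to 303 ± 98.6 (log2 difference -1.87 ± 0.21). Of the 24 (of 27 listed) clotting genes tested, 8 were higher and 7 lower at 24 h, with a median log2 difference of 0.14. Among these 24, 2 averaged under 5 at 0 h at both temperatures and passed the filter on low values through groups after LPS. Cpb2, a carboxypeptidase that slows fibrinolysis, rose from 289.9 ± 35.8 to 1014 ± 146 (log2 difference 1.80 ± 0.14), while Klkb1, plasma kallikrein, fell from 334 ± 42.8 to 99.4 ± 58.0 (log2 difference -1.94 ± 0.29) and F5 from 1123 ± 140.4 to 497 ± 119.7 (log2 difference -1.20 ± 0.20).

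**Figure D2:**
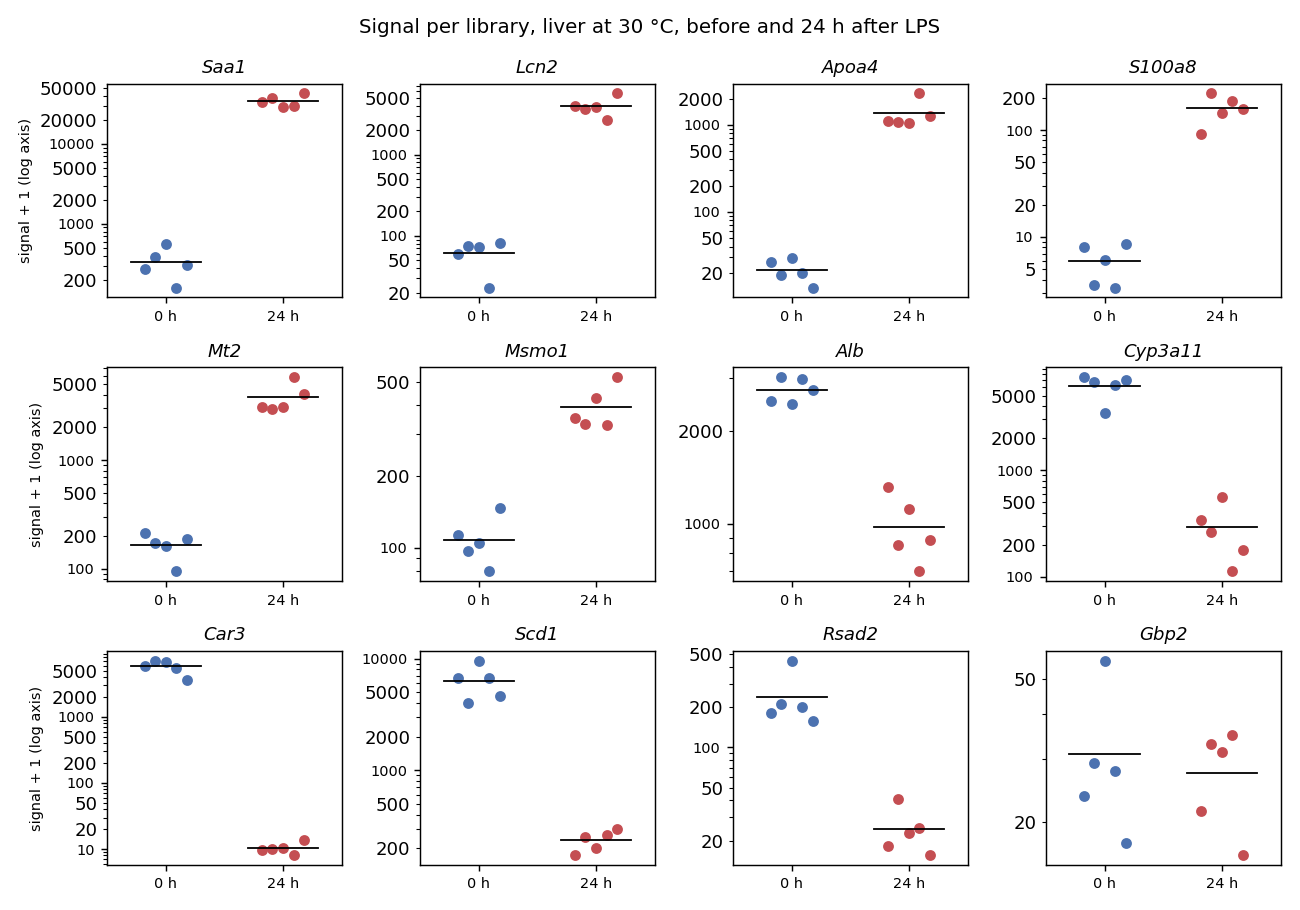
Signal + 1 on a log axis in each of the 5 libraries at 0 h (blue) and the 5 at 24 h (red) for 12 genes; black lines are group means. The groups do not overlap for 11 genes, and for Gbp2 they do.

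Most interferon-induced genes were not above their 0 h level at 24 h. Of the 17 (of 18 listed) interferon gamma-induced GTPases tested, which attack the vacuoles of intracellular microbes, 0 were higher (0 at an unadjusted limma p under 0.05) and 4 lower at 24 h, with a median log2 difference of -0.22. The number higher was 1 without 0 h replicate 3. Gbp2, a guanylate-binding protein at chr3:142620602-142638008, plus strand, gave 22.6, 28.3, 55.2, 26.8 and 16.5 at 0 h and 20.4, 32.0, 30.4, 33.9 and 15.2 at 24 h, and the groups overlapped (log2 difference -0.12 ± 0.25, adjusted p = 0.77). Its difference turned positive, uncalled, without 0 h replicate 3 (0.13), without 24 h replicate 5 (0.06) and without the 3 deepest 24 h libraries (0.22). Gbp7 fell from 105 ± 28.4 to 45.2 ± 7.78 (log2 difference -1.17 ± 0.17) and Iigp1, an immunity-related GTPase, from 483 ± 70.8 to 249 ± 46.2 (log2 difference -0.96 ± 0.18). Among the 34 (of 37 listed) type I interferon response genes tested, 3 were higher and 7 lower at 24 h, against 15.3% and 14.4% of all genes. Their median log2 difference was -0.25. At 0 h, 9 of these 34 and 2 of the 17 GTPase genes averaged under 5 at both temperatures. They passed the filter on low values through groups after LPS. Rsad2, the antiviral protein viperin, had 181, 210.4, 443, 199.6 and 157 at 0 h and 17.3, 40.3, 21.7, 24.0 and 14.6 at 24 h. All 24 h libraries lay below all 0 h libraries (log2 difference -3.26 ± 0.41), and Ifit1, another antiviral effector, fell from 107 ± 43.4 to 22.0 ± 10.4 (log2 difference -2.29 ± 0.34). Irf7, a transcription factor of the same response, went the other way, from 7.43 ± 1.51 to 24.4 ± 4.65 (log2 difference 1.59 ± 0.23), as did the nucleic acid sensor Zbp1, from 18.6 ± 12.3 to 114 ± 35.1 (log2 difference 2.76 ± 0.31).

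The promoter window of Gbp7 is shown because it holds 2 GAS motifs, marked by capitals. It comes from RefSeq on GRCm38.p6, at chr3:142530086-142530385, plus strand.
Gbp7: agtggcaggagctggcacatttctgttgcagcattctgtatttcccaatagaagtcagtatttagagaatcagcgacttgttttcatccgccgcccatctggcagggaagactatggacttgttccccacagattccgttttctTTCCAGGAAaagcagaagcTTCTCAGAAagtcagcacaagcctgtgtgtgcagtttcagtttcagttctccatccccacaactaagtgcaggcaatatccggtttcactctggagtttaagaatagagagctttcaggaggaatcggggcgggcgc

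Of the 11 windows found for 10 of the 17 GTPase genes, 6 (54.5%) held the GAS motif. Of the 27 windows found for 24 of the 34 type I genes, 5 (18.5%) did, against 8.3% of all windows and 6.9% of those of genes tested. In the list of NF-kB feedback and signalling inhibitors, 8 of 26 windows (30.8%) held it.

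Several chemokine genes were higher at 24 h. Of the 21 (of 33 listed) cytokine and chemokine genes tested, 9 were higher and 2 lower at 24 h. At 0 h, 13 of these 21 averaged under 5 at both temperatures and so passed the filter on low values through groups after LPS, which makes this count a description only. Leaving out 1 library changed the number lower to 1 without 0 h replicates 2, 4 or 5 or 24 h replicates 2 or 4. Cxcl1, which draws neutrophils, rose from 41.4 ± 20.3 to 419 ± 274 (log2 difference 3.15 ± 0.39), Ccl2, which draws monocytes, from 4.45 ± 4.34 to 25.8 ± 9.48 (log2 difference 2.68 ± 0.44), and Cxcl9, which draws T cells and is induced by interferon gamma, from 45.1 ± 7.13 to 379 ± 78.6 (log2 difference 3.03 ± 0.15). Cxcl10, a ligand of the same receptor, went the other way and fell from 45.3 ± 19.6 to 17.6 ± 10.4 (log2 difference -1.39 ± 0.34), and the other member that was lower, Ccl9, fell from 79.2 ± 9.84 to 59.9 ± 11.0 (log2 difference -0.41 ± 0.16), a call that was lost with 0 h replicates 2, 4 or 5 or 24 h replicates 2 or 4 left out (adjusted p = 0.057 to 0.17) and under other scalings. Cd14, the LPS co-receptor, had 33.4, 40.6, 47.1, 19.8 and 33.9 at 0 h and 159, 350.1, 212, 764 and 162 at 24 h. The 24 h libraries spread widely, with replicate 4 highest, and none fell to the 0 h range (log2 difference 2.97 ± 0.28). Of the 13 (of 21 listed) LPS recognition genes tested, 5 were higher and 0 lower (0 at an unadjusted limma p under 0.05) at 24 h; 6 of these 13 passed the filter in that way. Myd88, the Toll-like receptor adaptor, rose from 8.73 ± 2.92 to 36.1 ± 8.37 (log2 difference 1.96 ± 0.26) and Lbp, which carries LPS to CD14, from 68.2 ± 9.64 to 151 ± 21.5 (log2 difference 1.13 ± 0.14).

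Several inhibitors that close the same pathways were higher too. Of the 24 (of 25 listed) NF-kB feedback and signalling inhibitor genes tested, 10 were higher and 2 lower at 24 h; 10 of these 24 averaged under 5 at 0 h at both temperatures and passed the filter through groups after LPS. Socs3, which blocks IL-6 receptor signalling, rose from 2.37 ± 1.21 to 17.0 ± 1.32 (log2 difference 2.51 ± 0.29). Ier3, an early response gene of NF-kB, rose from 2.32 ± 1.81 to 60.6 ± 46.6 (log2 difference 4.06 ± 0.41). The 0 h means of both genes lay under the signal of 3 reads. Socs2, a growth hormone target, fell from 69.6 ± 18.6 to 16.2 ± 7.99 (log2 difference -2.09 ± 0.29), and Zfp36, which destabilises cytokine mRNA, fell from 513 ± 151 to 231 ± 80.3 (log2 difference -1.17 ± 0.30). Among the 15 (of 15 listed) IL-1 and IL-6 receptor genes tested, 7 were higher and 2 lower at 24 h, with a median log2 difference of 0.59. In this list, 2 of the 15 passed the filter in the same way. The IL-1 receptor Il1r1 rose from 14.9 ± 7.30 to 79.0 ± 15.7 (log2 difference 2.49 ± 0.27), while its partner chain Il1rap fell from 248 ± 35.7 to 88.8 ± 38.3 (log2 difference -1.58 ± 0.22) and the LIF receptor Lifr from 147 ± 23.4 to 35.1 ± 11.2 (log2 difference -2.07 ± 0.27).

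Some antigen presentation genes were higher at 24 h. Of the 18 (of 19 listed) MHC class I and immunoproteasome genes tested, 6 were higher and 1 lower at 24 h, with a median log2 difference of 0.30, and H2-D1 rose from 174 ± 22.5 to 539 ± 49.1 (log2 difference 1.63 ± 0.10) and H2-K1 from 921 ± 129 to 1533 ± 111 (log2 difference 0.74 ± 0.11). Counts lower were 2 without 0 h replicate 5 or 24 h replicates 2 or 5. The H2 genes are close paralogs and their reads may be divided. Of the 5 (of 11 listed) MHC class II genes tested, 1 was higher and 1 lower.

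**Figure D3:**
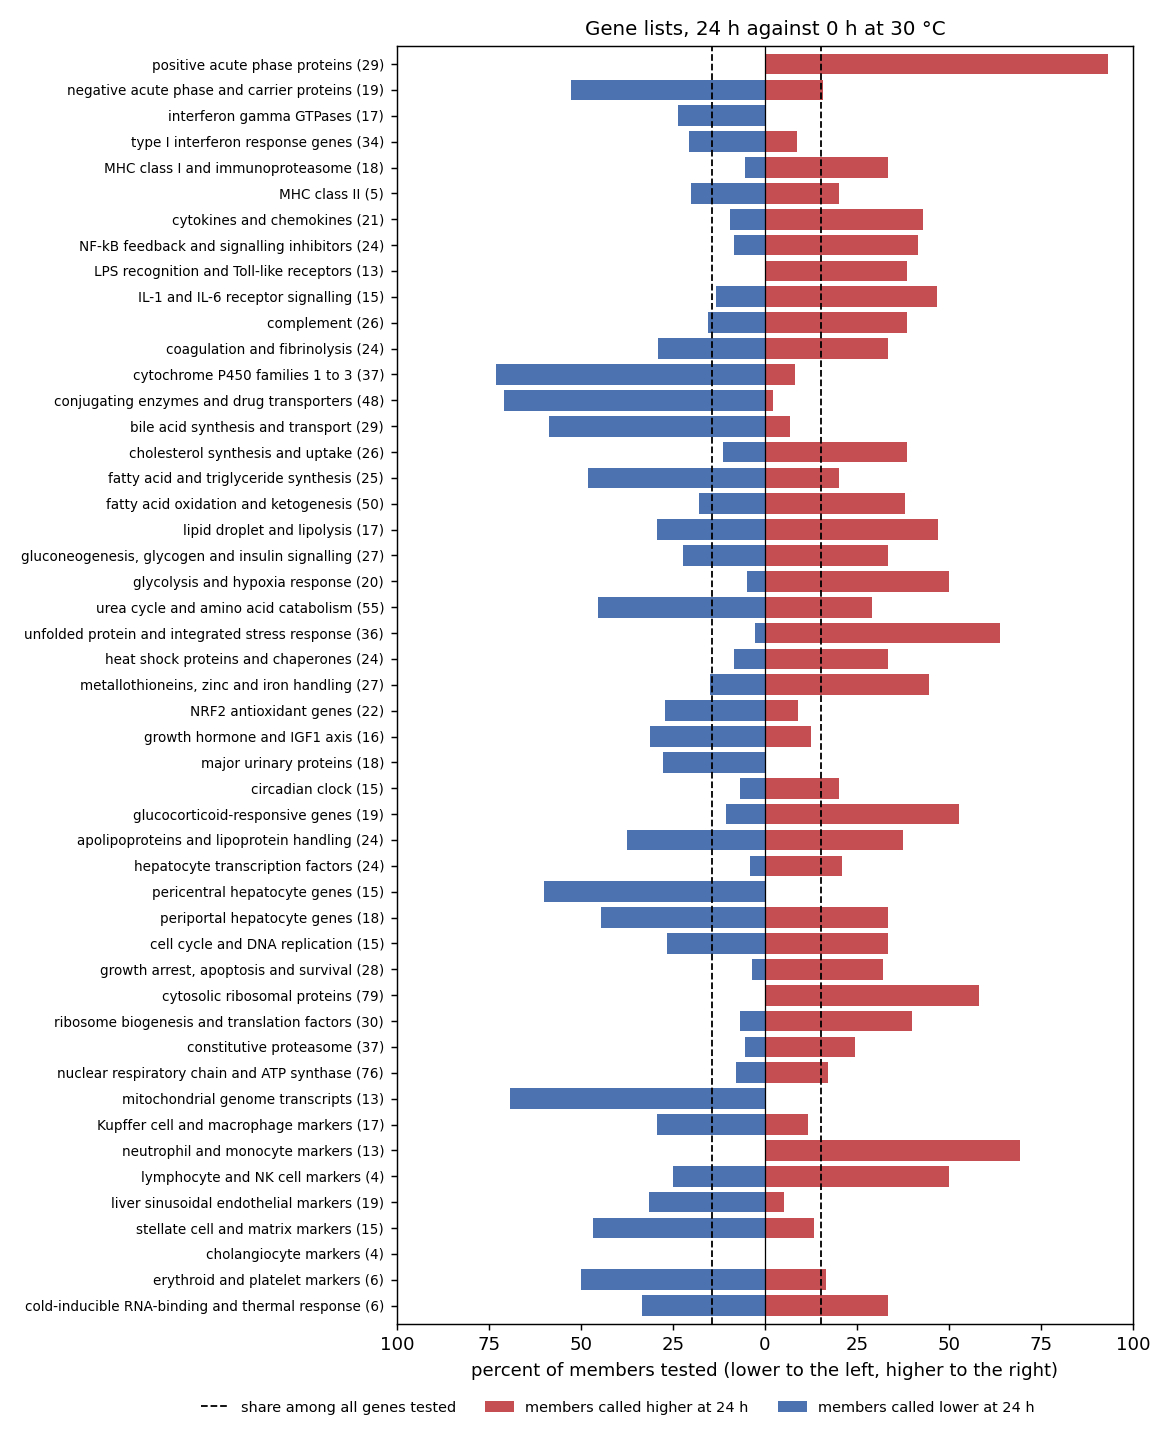
Share of the tested members of each of 49 gene lists that were called higher (red, to the right) or lower (blue, to the left) at 24 h, with the number tested in brackets. Dashed lines mark the shares among all 8702 genes, 15.3% higher and 14.4% lower; acute phase proteins reach furthest to the right and P450 genes furthest to the left.

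Drug-metabolising enzymes fell broadly. Of the 37 (of 51 listed) cytochrome P450 genes of families 1 to 3 tested, 3 were higher and 27 lower at 24 h, with a median log2 difference of -1.88. Cyp3a11 (chr5:145854426-145879964, minus strand), the main mouse CYP3A enzyme, gave 7469, 6674, 3430.3, 6305 and 7050.2 at 0 h and 339.6, 264, 561, 112 and 177 at 24 h. Every 24 h library was well below every 0 h library (log2 difference -4.57 ± 0.28, adjusted p = 7.5e-15). Cyp1a2, which metabolises caffeine, fell from 1199 ± 206 to 31.6 ± 10.6 (log2 difference -5.25 ± 0.25) and Cyp2c37 from 1309 ± 346 to 59.9 ± 35.5 (log2 difference -4.56 ± 0.26). Cyp3a13 and Cyp2d9 went the other way, from 230.2 ± 63.3 to 459 ± 129 (log2 difference 1.00 ± 0.19) and from 19.0 ± 10.4 to 132 ± 38.1 (log2 difference 2.90 ± 0.39). Of the 48 (of 56 listed) conjugating enzyme and drug transporter genes tested, 1 was higher and 34 lower at 24 h, with a median log2 difference of -1.60. With 1 library left out, the number higher was 0 without 0 h replicate 3 or 24 h replicate 1. Gstm1, a glutathione transferase, fell from 6922 ± 989 to 399 ± 101 (log2 difference -4.15 ± 0.24) and Gsta3 from 1229 ± 195 to 55.4 ± 18.5 (log2 difference -4.52 ± 0.26). The P450, glutathione transferase and carboxylesterase families hold near-identical copies, so values of single members are uncertain.

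Bile acid genes were lower as well. Of the 29 (of 30 listed) tested, 2 were higher and 17 lower at 24 h, with a median log2 difference of -1.0. Abcb11, the bile salt export pump, had 2571, 2665, 2339.9, 2547 and 2571 at 0 h and 499.6, 339, 561, 109.6 and 420.1 at 24 h. No 24 h library reached the 0 h range, and replicate 4 was lowest (log2 difference -2.91 ± 0.29). Cyp7a1, which sets the pace at which bile acids are made, fell from 23.7 ± 22.0 to 1.32 ± 1.83 (log2 difference -2.97 ± 0.63), although the groups overlapped and the 24 h mean was under the signal of 3 reads. Cyp27a1, which opens the alternative route, fell from 48.7 ± 8.90 to 14.3 ± 3.10 (log2 difference -1.71 ± 0.20).

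Hepatocytes near the central vein and near the portal vein express different genes. Of the 15 (of 19 listed) pericentral genes tested, 0 were higher (0 at an unadjusted limma p under 0.05) and 9 lower at 24 h, with a median log2 difference of -1.45; several of them are P450 or glutathione transferase genes already counted above. Of the 18 (of 18 listed) periportal genes tested, 6 were higher and 8 lower at 24 h, with a median log2 difference of -0.29. Apoa4 and Hpx, given above, are among those higher. The number lower was 5 without 0 h replicate 2. Arg1, the last enzyme of the urea cycle, rose from 1041 ± 104 to 2779 ± 618 (log2 difference 1.40 ± 0.16), and Pigr, the transporter of immunoglobulin A into bile, fell from 455 ± 70.3 to 66.0 ± 31.3 (log2 difference -2.88 ± 0.24). Of the 24 (of 29 listed) hepatocyte transcription factor genes tested, 5 were higher, among them Cebpb, from 91.3 ± 12.7 to 252 ± 30.0 (log2 difference 1.46 ± 0.20), and 1 was lower, the fatty acid sensor Ppara, at 12.0 ± 2.55 and 4.66 ± 1.89. Leaving out 1 library changed the number lower to 2 without 0 h replicate 1 or 24 h replicate 3. The shares among all genes were 15.3% higher and 14.4% lower.

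Several carrier proteins and some genes of the growth hormone axis fell. Of the 19 (of 19 listed) negative acute phase and carrier proteins tested, 3 were higher and 10 lower at 24 h, with a median log2 difference of -0.66. Alb had 2518, 3006, 2452, 2961 and 2739 at 0 h and 1312, 850.1, 1114, 697 and 884 at 24 h. All 24 h libraries lay below all 0 h libraries (log2 difference -1.52 ± 0.14). Afamin (Afm), a vitamin E carrier, fell from 242 ± 39.3 to 50.5 ± 22.3 (log2 difference -2.36 ± 0.24). Of the 16 (of 19 listed) growth hormone and IGF1 axis genes tested, 2 were higher and 5 lower at 24 h, with a median log2 difference of -0.69: the receptor Ghr fell from 148 ± 37.2 to 40.3 ± 11.0 (log2 difference -1.86 ± 0.23) and Igfals, which stabilises IGF1 in plasma, from 70.0 ± 12.1 to 12.1 ± 7.68 (log2 difference -2.64 ± 0.36), while Igf1 itself stood at 421 ± 47.6 and 355 ± 59.0 (adjusted p = 0.23). Igfbp1, an IGF-binding protein, rose from 151 ± 75.0 to 1060.4 ± 834 (log2 difference 2.58 ± 0.39), and Cyp2d9, described above, is the other member of that list that rose. Among the 18 (of 22 listed) Mup genes tested, which code for pheromone carriers and are near-identical, 0 were higher (1 at an unadjusted limma p under 0.05) and 5 lower. Counts lower were 3 without 0 h replicates 2 or 3 or 24 h replicates 2 or 4. Such a count of 3 of 18 is near the 14.4% lower among all genes. With 1 library left out, the number higher was 1 without 0 h replicates 1, 2 or 3.

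Genes that build fatty acids fell, while those that store or burn them were divided. Of the 25 (of 30 listed) fatty acid and triglyceride synthesis genes tested, 5 were higher and 12 lower at 24 h, with a median log2 difference of -0.55. Scd1, the desaturase that makes monounsaturated fatty acids (chr19:44394455-44407879, minus strand), had 6746, 3963, 9502, 6732 and 4622 at 0 h and 172, 250.2, 199, 264 and 296 at 24 h. The ranges were far apart (log2 difference -4.69 ± 0.34). Fasn, the fatty acid synthase, fell from 28.4 ± 15.8 to 5.18 ± 1.70 (log2 difference -2.15 ± 0.40). Srebf1, the transcription factor that drives such genes, fell from 28.2 ± 8.16 to 3.66 ± 0.57 (log2 difference -2.62 ± 0.29). The 24 h mean of Srebf1 lay in the range worth about 3 reads. Of the 50 (of 51 listed) fatty acid oxidation and ketogenesis genes tested, 19 were higher and 9 lower at 24 h, with a median log2 difference of 0.33. Cpt1a, which admits fatty acids to mitochondria, rose from 86.5 ± 32.3 to 194 ± 45.2 (log2 difference 1.19 ± 0.24), and Hadh, an enzyme of beta-oxidation, fell from 945 ± 184 to 296 ± 57.7 (log2 difference -1.67 ± 0.20). Of the 17 (of 20 listed) lipid droplet genes tested, 8 were higher and 5 lower at 24 h, with a median log2 difference of 0.28. Among these 17, 2 averaged under 5 at 0 h at both temperatures, as did 2 of the 50 fatty acid oxidation genes. Such members passed the filter on low values through groups after LPS, so both numbers higher are in part a description. Plin2, which coats lipid droplets, rose from 129.7 ± 28.9 to 678 ± 223 (log2 difference 2.35 ± 0.21). Cidec, a lipid droplet protein, was listed at 0 in all 5 libraries at 0 h and had 15.7, 46.7, 35.8, 83.3 and 37.6 at 24 h.

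Cholesterol synthesis genes leaned upward. Of the 26 (of 27 listed) tested, 10 were higher and 3 lower at 24 h, with a median log2 difference of 0.53. Msmo1, a methylsterol monooxygenase (chr8:64718139-64733792, minus strand), had 112, 95.6, 104, 78.4 and 146 at 0 h and 349, 330.0, 425, 327 and 520.5 at 24 h. The groups did not overlap (log2 difference 1.86 ± 0.23). Sqle, squalene epoxidase, rose from 30.5 ± 11.1 to 144 ± 35.8 (log2 difference 2.28 ± 0.30). Insig1, a brake on the pathway, fell from 789 ± 82.9 to 342 ± 71.3 (log2 difference -1.23 ± 0.27). Apolipoprotein genes were split: of the 24 (of 25 listed) tested, 9 were higher and 9 lower at 24 h, with a median log2 difference of -0.21, and Apoc2, which activates lipoprotein lipase, rose from 189 ± 9.96 to 715 ± 119.9 (log2 difference 1.90 ± 0.18) while Apoc1 fell from 2025 ± 116 to 826 ± 173 (log2 difference -1.32 ± 0.12).

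In glucose metabolism, of the 27 (of 30 listed) gluconeogenesis, glycogen and insulin signalling genes tested, 9 were higher and 6 lower at 24 h, with a median log2 difference of 0.33. Pck1, a control point of gluconeogenesis, rose from 653 ± 183 to 1518 ± 133 (log2 difference 1.26 ± 0.26), and Fbp1, another enzyme of that pathway, from 364 ± 123 to 1106 ± 192 (log2 difference 1.66 ± 0.19). Of the 20 (of 26 listed) glycolysis and hypoxia genes tested, 10 were higher and 1 lower at 24 h, with a median log2 difference of 0.62, with Ldha, lactate dehydrogenase, at 109 ± 25.2 at 0 h and 529 ± 88.4 at 24 h (log2 difference 2.29 ± 0.15). The number lower was 2 without 0 h replicate 2. In this list, 2 of the 20 averaged under 5 at 0 h at both temperatures and passed the filter on low values through groups after LPS.

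Amino acid enzymes moved both ways. Of the 55 (of 59 listed) urea cycle and amino acid catabolism genes tested, 16 were higher and 25 lower at 24 h, with a median log2 difference of -0.34. Otc, the mitochondrial urea cycle enzyme, fell from 2436 ± 203 to 405 ± 227 (log2 difference -2.80 ± 0.24), whereas Mat1a, which makes S-adenosylmethionine, rose from 3723 ± 547 to 14644 ± 1563 (log2 difference 1.98 ± 0.17). Tat, a tyrosine aminotransferase induced by glucocorticoids, rose from 539.6 ± 199.6 to 2034 ± 329.7 (log2 difference 1.96 ± 0.21). Of the 19 (of 19 listed) glucocorticoid-responsive genes tested, 10 were higher and 2 lower at 24 h, with a median log2 difference of 1.14. At 0 h, 4 of these 19 averaged under 5 at both temperatures and passed the filter through groups after LPS. The receptor gene Nr3c1 fell from 55.4 ± 13.7 to 26.9 ± 9.44 (log2 difference -1.05 ± 0.24) and Hsd11b1, which regenerates active glucocorticoid, from 489 ± 59.2 to 97.7 ± 16.0 (log2 difference -2.32 ± 0.14).

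Genes of the secretory pathway rose as a group. Of the 36 (of 39 listed) unfolded protein and integrated stress response genes tested, 23 were higher and 1 lower at 24 h, with a median log2 difference of 0.86. Among these 36, 3 averaged under 5 at 0 h at both temperatures and passed the filter on low values through groups after LPS. Pdia6, a disulfide isomerase of the endoplasmic reticulum, rose from 154 ± 29.0 to 509 ± 70.9 (log2 difference 1.74 ± 0.15), Manf, a secreted stress protein of the same compartment, from 65.1 ± 16.5 to 248 ± 52.0 (log2 difference 1.93 ± 0.23) and the co-chaperone Dnajb11 from 27.4 ± 9.67 to 142 ± 23.7 (log2 difference 2.40 ± 0.26). Of the 24 (of 30 listed) heat shock and chaperone genes tested, 8 were higher and 2 lower, and the cytosolic chaperone Hsp90ab1 fell from 1153 ± 301 to 392 ± 89.0 (log2 difference -1.54 ± 0.26). Among the 22 (of 26 listed) NRF2 antioxidant genes tested, 2 were higher and 6 lower at 24 h, with a median log2 difference of -0.10. Leaving out 1 library changed the number higher to 1 without 0 h replicate 5 or 24 h replicates 2 or 3. Catalase (Cat) fell from 3032 ± 629 to 614 ± 264 (log2 difference -2.38 ± 0.27) and mitochondrial superoxide dismutase (Sod2) rose from 563 ± 32.1 to 975 ± 181 (log2 difference 0.77 ± 0.12). Cell cycle and DNA replication genes were split: 5 were higher and 4 lower of the 15 (of 42 listed) tested, with a median log2 difference of 0.17. In this list, 3 of the 15 averaged under 5 at 0 h at both temperatures and passed the filter through groups after LPS. The number higher in the list is therefore in part a description. It was 3 without 0 h replicates 2 or 3 or 24 h replicates 2 or 5, and 2 without 24 h replicate 4. The number lower in the list was 2 without 0 h replicate 5. Cdkn1a, the cell cycle inhibitor p21, rose from 14.1 ± 6.11 to 118 ± 51.0 (log2 difference 2.96 ± 0.30). Ccnd1, cyclin D1, fell from 33.9 ± 9.90 to 2.88 ± 2.35 (log2 difference -3.34 ± 0.40), to a 24 h mean in the range worth about 3 reads. Rbm3, a cold-inducible RNA-binding protein, rose from 57.2 ± 23.03 to 238 ± 38.3 (log2 difference 2.11 ± 0.18). The related Cirbp stood at 10.0 ± 3.17 and 8.49 ± 4.05 (adjusted p = 0.6).

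Ribosomal protein genes rose modestly and together. Of the 79 (of 79 listed) tested, 46 were higher and 0 lower (0 at an unadjusted limma p under 0.05) at 24 h, with a median log2 difference of 0.51, and they took 2.58 to 3.43% of the signal per library at 0 h and 3.62 to 4.51% at 24 h. Rplp2, an acidic protein of the ribosomal stalk, rose from 358 ± 90.4 to 851 ± 158 (log2 difference 1.27 ± 0.17). Of the 30 (of 37 listed) ribosome biogenesis and translation factor genes tested, 12 were higher and 2 lower. Counts lower were 1 without 24 h replicate 1. Transcripts of the mitochondrial genome took 15.1 to 18.1% of the signal at 0 h and 7.86 to 10.0% at 24 h, and of the 13 (of 15 listed) tested, 0 were higher (0 at an unadjusted limma p under 0.05) and 9 lower at 24 h, with a median log2 difference of -0.72. mt-Nd4, a complex I subunit, fell from 21646 ± 4097 to 8668 ± 1801 (log2 difference -1.33 ± 0.16). Nuclear genes for the respiratory chain were mostly not called: of the 76 (of 76 listed) tested, 13 were higher and 6 lower at 24 h. The share higher is close to the 15.3% higher among all genes, and the median log2 difference was 0.04. With 1 library left out, the number higher was 5 without 0 h replicate 3, 6 without 24 h replicate 3, 8 without 24 h replicates 4 or 5. Of the 37 (of 37 listed) constitutive proteasome genes tested, 9 were higher and 2 lower, and with upper-quartile rescaling 15 were higher and 0 lower. The number lower was 0 without 0 h replicate 2 or 24 h replicate 3, 1 without 0 h replicate 3 or 24 h replicates 1 or 2.

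Several markers of neutrophils and monocytes were higher at 24 h, and several Kupffer cell markers were lower. Of the 13 (of 30 listed) neutrophil and monocyte markers tested, 9 were higher and 0 lower (0 at an unadjusted limma p under 0.05) at 24 h. This count is a description only, since 6 of these 13 averaged under 5 at 0 h at both temperatures and passed the filter through groups after LPS. The number higher was 15 with no filter on the mean and 4 at a mean of at least 20. Summed over the markers, the signal was 131 to 154 in 4 of the 0 h libraries and 400.2 in 0 h replicate 3, against 404 to 583 at 24 h. S100a8, one chain of the neutrophil protein calprotectin, had 7.01, 2.57, 5.13, 2.37 and 7.64 at 0 h and 91.4, 219, 144, 187 and 155 at 24 h. The groups did not overlap (log2 difference 4.80 ± 0.31). S100a9, its partner, rose from 2.42 ± 1.44 to 80.1 ± 22.5 (log2 difference 4.69 ± 0.35), from a 0 h mean under 3 reads. Ngp, a neutrophil granule protein, was listed at 0 in every 0 h library and stood at 2.08, 7.82, 10.1, 13.4 and 5.53 at 24 h.

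Of the 17 (of 19 listed) Kupffer cell and macrophage markers tested, 2 were higher and 5 lower at 24 h, against 15.3% and 14.4% of all genes. Their median log2 difference was -0.64. At a mean of at least 20, 0 were higher and 2 lower. The summed signal of the markers went from 568 to 829 at 0 h to 340.1 to 443 at 24 h. Clec4f, a lectin of Kupffer cells, had 66.4, 51.6, 51.1, 53.9 and 61.7 at 0 h and 7.99, 8.40, 14.1, 5.24 and 4.88 at 24 h, without overlap (log2 difference -2.75 ± 0.33). Vsig4 and Cd5l, also typical of these cells, fell from 43.4 ± 7.86 to 5.86 ± 1.35 (log2 difference -2.70 ± 0.45) and from 50.0 ± 12.6 to 3.32 ± 2.88 (log2 difference -3.88 ± 0.44). The 24 h mean of Cd5l lay in the range worth about 3 reads. Marco, a scavenger receptor, rose from 3.52 ± 2.25 to 25.2 ± 8.61 (log2 difference 2.65 ± 0.39). What part these cells have in the cytokine and Cd14 changes was not tested.

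Sinusoidal endothelial markers were lower in 6 and higher in 1 of the 19 (of 25 listed) tested, with a median log2 difference of 0.21. Leaving out 1 library changed the number lower to 3 without 0 h replicate 2 or 24 h replicate 5. A count of 3 of 19 is near the 14.4% lower among all genes. Clec4g, a lectin of these cells, fell from 64.5 ± 15.0 to 10.2 ± 5.97 (log2 difference -2.65 ± 0.47), and Lyve1, a hyaluronan receptor, rose from 12.2 ± 9.86 to 24.5 ± 7.77 (log2 difference 1.14 ± 0.32), uncalled without the 3 deepest 24 h libraries (adjusted p = 0.063). Stellate cell and matrix markers were lower in 7 and higher in 2 of the 15 (of 25 listed) tested. Colec10 fell from 35.1 ± 7.05 to 2.04 ± 2.27 (log2 difference -3.86 ± 0.42), to a 24 h mean in the range worth about 3 reads. Timp1, an inhibitor of matrix proteases, was listed at 0 in all 0 h libraries and had 6.45, 13.1, 8.42, 7.93 and 5.20 at 24 h. At 0 h, 2 of these 15 averaged under 5 at both temperatures and passed the filter through groups after LPS. The number higher is therefore a description only. With a mean of at least 20 required, 0 were higher and 2 lower. Counts lower were 4 without 0 h replicates 1, 3 or 5 or 24 h replicate 1. Only 4 of 24 lymphocyte and NK cell markers and 4 of 11 cholangiocyte markers passed the filter on low values. Of these, 2 lymphocyte markers were higher, 1 was lower and no cholangiocyte marker was called. The 2 that were higher, Ccl5 and Gzmb, averaged under 5 at 0 h at both temperatures. Both passed the filter through groups after LPS, so that count is a description only. With 1 library left out, the number of lymphocyte markers lower was 0 without 0 h replicates 1 or 3 or 24 h replicates 1, 4 or 5. Haemoglobin genes Hba-a1 and Hba-a2, from red cells left in the tissue, stood at 323 ± 157 and 453 ± 200.4 at 0 h and at 134 ± 41.7 and 174 ± 44.3 at 24 h.

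From 12 h to 24 h at 30 °C, interferon genes fell and genes of several metabolic lists rose. Both comparisons use the same 24 h libraries, so their values are given side by side and not correlated. From 12 h to 24 h, 1006 genes rose and 828 fell, 11.6% and 9.52% of the 8702. Interferon genes fell nearly together: 15 of 17 GTPase genes and 29 of 34 type I genes were lower at 24 h than at 12 h, and none was higher. Of these, 2 of the 17 and 9 of the 34 passed the filter on low values through groups after LPS. For such members a later fall can follow from the filter, so these counts are a description only. Gbp2 fell from 765 ± 143 to 26.4 ± 8.15 (log2 difference -4.84 ± 0.27), Gbp7 from 545 ± 147 to 45.2 ± 7.78 (log2 difference -3.54 ± 0.18) and Tgtp1, another immunity-related GTPase, from 112 ± 52.4 to 1.85 ± 3.91 (log2 difference -5.90 ± 0.53). Cd14 fell from 2162 ± 519 to 329 ± 255 (log2 difference -2.96 ± 0.29). Several metabolic lists held many genes that rose: 31 of 55 urea cycle and amino acid genes, 33 of 50 fatty acid oxidation genes, 52 of 76 nuclear respiratory chain genes and 20 of 26 cholesterol genes were higher at 24 h than at 12 h. Other metabolic lists were divided, with 10 higher and 10 lower of 37 P450 genes, 12 higher and 13 lower of 48 conjugating enzyme and transporter genes, and 2 higher and 5 lower of 15 pericentral genes.

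Among the largest rises since 12 h, Bhmt, a methyltransferase of methionine metabolism, rose from 232 ± 116 to 4708 ± 2729 (log2 difference 4.22 ± 0.40), Enho, which codes for the peptide adropin, from 0.63 ± 0.81 to 34.8 ± 15.9 (log2 difference 4.45 ± 0.50), and Gpd1, a glycerol phosphate dehydrogenase, from 6.51 ± 3.95 to 90.6 ± 12.2 (log2 difference 3.77 ± 0.30). Abcb11 rose from 109 ± 42.3 to 386 ± 176 (log2 difference 1.70 ± 0.31), which left it well under its 0 h level. The falls of Car3 and Scd1 went further: Car3 stood at 259 ± 16.3 at 12 h and Scd1 at 1507 ± 608, and both were lower again at 24 h (log2 differences -4.68 ± 0.36 and -2.62 ± 0.36). Saa1 was still higher at 24 h than at 12 h (log2 difference 0.65 ± 0.20, adjusted p = 0.019).

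**Figure D4:**
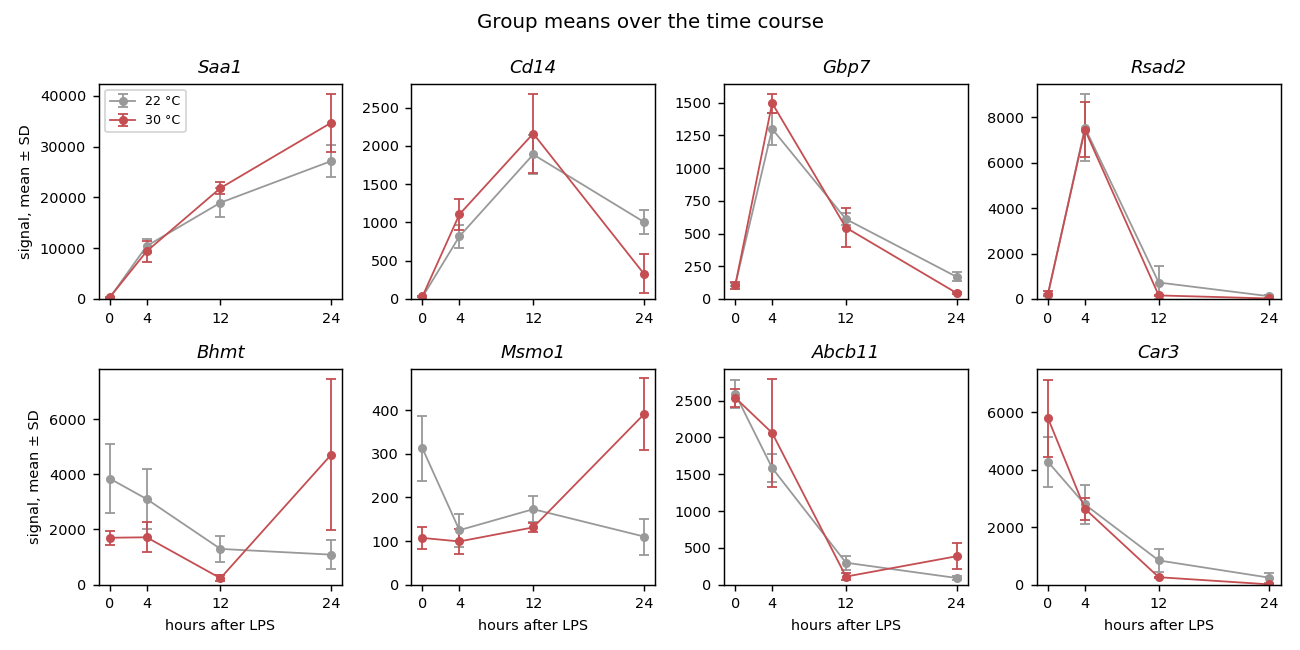
Mean signal ± SD (4 or 5 libraries) against hours after LPS for 8 genes at 30 °C (red) and 22 °C (grey). At 30 °C, Gbp7 and Rsad2 peak at 4 h and Cd14 at 12 h, Bhmt and Msmo1 are highest at 24 h, and Car3 falls at every step.

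The change from 0 h to 24 h at 30 °C was also set against the change at 22 °C by testing the difference of both changes in the same fit. It was called for 779 genes (8.95%), 441 (5.07%) more positive at 30 °C and 338 (3.88%) more negative. Of 26 cholesterol genes, 20 were more positive at 30 °C and 1 more negative. At 22 °C, 1 of them rose and 21 fell over the same interval. Msmo1 showed at 0 h and 24 h, at 22 °C 312 ± 74.6 and 110.3 ± 41.2, and at 30 °C 107 ± 24.8 and 390.4 ± 82.9 (log2 difference of changes 3.41 ± 0.34, adjusted p = 1e-07). The groups already differed at 0 h in its mean, so the difference of changes holds both starting and final levels.

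Urea cycle and amino acid genes were more positive at 30 °C in 24 of 55, and more negative in 0; for Bhmt the means at 0 h and 24 h were at 22 °C 3844 ± 1256 and 1087 ± 538, and at 30 °C 1699 ± 254 and 4708 ± 2729 (log2 difference of changes 3.09 ± 0.55). Interferon gamma GTPases were more negative at 30 °C in 12 of 17, and at 22 °C 11 of them were still above 0 h. Gbp2 had, at 0 h and 24 h, at 22 °C 39.0 ± 7.94 and 353 ± 133, and at 30 °C 29.9 ± 14.9 and 26.4 ± 8.15 (log2 difference of changes -3.20 ± 0.36, adjusted p = 9.6e-07). Nuclear respiratory chain genes were more positive at 30 °C in 17 of 76 and complement genes in 8 of 26.

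Some falls were deeper at 30 °C. Car3 had, at 0 h and 24 h, at 22 °C 4275 ± 861 and 242 ± 169, and at 30 °C 5796 ± 1348 and 9.29 ± 1.99 (log2 difference of changes -4.67 ± 0.49), and Scd1 at 22 °C 3043 ± 1205 and 1239 ± 343, and at 30 °C 6313 ± 2175 and 236 ± 49.9 (log2 difference of changes -3.43 ± 0.50). Thrsp, a lipogenic gene that responds to thyroid hormone, had at 22 °C 197 ± 118 and 183 ± 58.2, and at 30 °C 169 ± 68.7 and 14.6 ± 8.06 (log2 difference of changes -3.51 ± 0.53). Abcb11, in contrast, was less depressed at 30 °C (log2 difference of changes 1.97 ± 0.42). For Saa1 and Lcn2 no difference of changes was called (log2 0.04 ± 0.28 and -0.30 ± 0.30, adjusted p = 0.95 and 0.6).

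**Figure D5:**
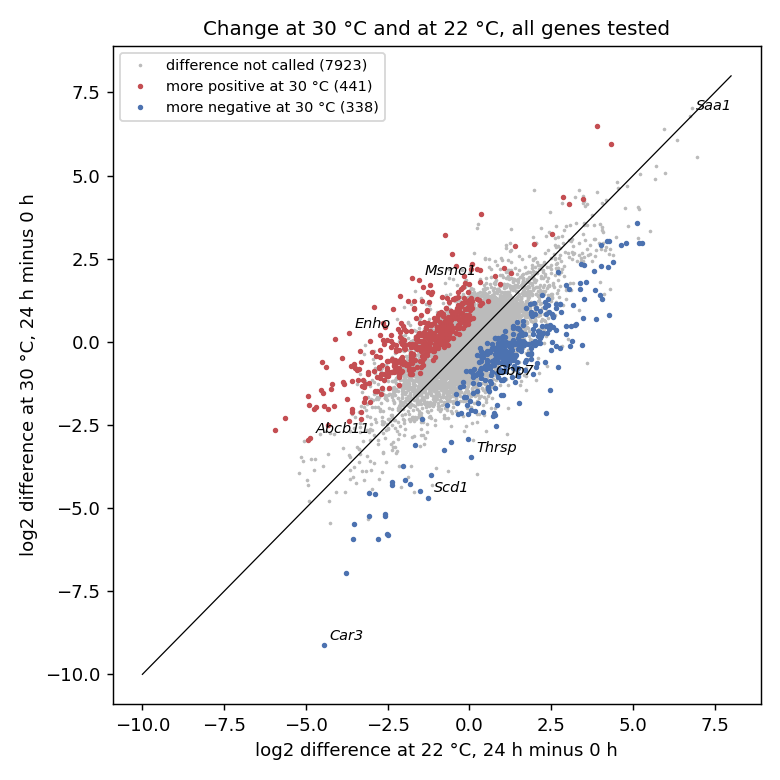
Log2 difference between 24 h and 0 h at 30 °C (vertical) against the same at 22 °C (horizontal), 1 point per gene tested, with the line of equal change. Red marks the 441 genes whose change was more positive at 30 °C and blue the 338 more negative; Msmo1 and Enho lie above the line, Car3, Scd1 and Thrsp below it, and Saa1 close to it.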

How the data were processed

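Liver RNA libraries were made with CEL-Seq2 adapted to tissue and processed with Trimmomatic, kallisto and sleuth, per the submitters' processing notes. The genome build, the transcript index and whether molecular identifiers were collapsed are stated in none of the sources used. The deposited values are a signal, scaled reads per base from the authors' normalized table. They were matched to samples by the library names in the sample descriptions, and the groups were read from the titles. Gene symbols came from GENCODE M21, which named 34406 of 34829 gene identifiers. Signal is not a count, so no count test was used: values were whole multiples of 1 read (within 0.01 read) for only 14.9 to 18.9% of genes per library, and depth and the 3-read limits were estimated from these steps. Genes with a mean of at least 5 over the 36 libraries (8702) were tested on log2(signal + 1) with limma 3.58.1 in R 4.3.3, in 1 fit with a mean per group and an intensity trend, with Benjamini-Hochberg adjustment over all of them and a threshold of 0.05. Of these genes, 102 had values identical to another gene. Self-tests on simulated data were run first. Members and gene lists (49, of which 1199 of 1432 entries were tested) were chosen with earlier results of these data known. Some genes stand in more than 1 list, as the 1432 entries hold 1363 distinct symbols. Other lists, among them acute phase proteins with 1 of 29, also held tested members that averaged under 5 in both 0 h groups. Such members passed the filter through groups after LPS, so numbers higher that include them are in part a description. Genes were named by rule: the 12 largest rises and falls among genes averaging 20 or more in the higher of both groups, up to 4 changed members of smallest p per list with up to 2 against the majority, 24 followed genes, and the 6 largest rises and falls of the 2 further comparisons; the text gives a part of these 240, and some are not reported here. Alternatives covered the pseudocount, the filter, the scaling, TPM in place of signal, array weights, a replicate block, the groups fitted and each library left out.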

Additional observations from a re-analysis of the deposited data

Results flagged for a closer look

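For the 127 genes whose values are given above, each group of 5 libraries was examined for 1 library far from the other 4 (Dixon's ratio of the signals above 0.71). Chance passes this limit in about 1 of 20 groups of normally distributed values. Signals need not be so distributed, and a group with only 1 value above 0 always passes, so that rate is no baseline here. The limit was passed in 25 of 250 groups, and in 8 of them the library was 0 h replicate 3. 0 h replicate 1 was highest for Hsd11b1 at 592 with its neighbour at 477 and highest for Per1 at 1.02 with its neighbour at 0. 0 h replicate 2 was highest for Hao2 at 108 with its neighbour at 60.6, highest for Hba-a1 at 595 with its neighbour at 299.5 and highest for Hba-a2 at 806 with its neighbour at 422. 0 h replicate 2 was highest for Tat at 882 with its neighbour at 515. 0 h replicate 3 was highest for Cat at 4148 with its neighbour at 2875, highest for Cxcl9 at 57.5 with its neighbour at 44.0 and lowest for Cyp3a11 at 3430.3 with its neighbour at 6305. 0 h replicate 3 was highest for Ifit1 at 184 with its neighbour at 98.1, highest for Lyve1 at 29.5 with its neighbour at 10.8 and highest for Rsad2 at 443 with its neighbour at 210.4. 0 h replicate 3 was lowest for S100a9 at 0 with its neighbour at 2.53 and highest for Sult1e1 at 1.68 with its neighbour at 0. 0 h replicate 4 was highest for C5ar1 at 2.34 with its neighbour at 0. 24 h replicate 1 was lowest for Hba-a2 at 97.6 with its neighbour at 177 and highest for Inmt at 3.82 with its neighbour at 1.39. 24 h replicate 2 was highest for Socs3 at 19.3 with its neighbour at 16.9. 24 h replicate 3 was highest for Cyp7a1 at 4.49 with its neighbour at 1.24. 24 h replicate 4 was highest for Apoa4 at 2298 with its neighbour at 1278 and highest for Socs2 at 30.5 with its neighbour at 13.2. 24 h replicate 5 was highest for Arg1 at 3863 with its neighbour at 2621, highest for C3 at 1894 with its neighbour at 1095 and highest for Tgtp1 at 8.84 with its neighbour at 0.15. 24 h replicate 5 was highest for Thrsp at 28.6 with its neighbour at 13.8.

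The change from 0 h to 24 h differed between 30 °C and 22 °C for 47 of these genes (limma interaction, adjusted p under 0.05), more positive at 30 °C for 18 and more negative for 29; the baseline share is 5.07% positive and 3.88% negative, and many of these genes were named for this or the main comparison. The log2 difference of the changes was 0.72 for Hpx, 0.78 for C3, 0.80 for Pdia6, 0.84 for Orm1, 1.19 for Mat1a and 1.24 for Pck1. It was 1.28 for Cat, 1.49 for Gpd1, 1.65 for Apoa4, 1.85 for Insig1, 1.97 for Abcb11 and 2.50 for Klkb1. It came to 2.59 for Orm2, 2.70 for Sqle, 3.09 for Bhmt, 3.28 for Clec4g, 3.41 for Msmo1 and 3.94 for Enho. The log2 difference of the changes was -4.67 for Car3, -3.51 for Thrsp, -3.43 for Scd1, -3.25 for Gamt, -3.20 for Gbp2 and -3.17 for Tgtp1. It was -3.16 for Inmt, -3.11 for Serpina6, -2.66 for Cyp1a2, -2.61 for Hamp2, -2.47 for Rsad2 and -2.36 for Hao2. It came to -2.26 for Socs2, -2.20 for Cd14, -2.17 for Rgn, -2.17 for Gstm1, -1.97 for Hsd17b6 and -1.85 for Cirbp. Values were -1.83 for Cdkn1a, -1.78 for Gbp7, -1.66 for Cyp3a11, -1.62 for Lyve1, -1.49 for Cyp2c37 and -1.46 for Irf7. It stood at -1.25 for Cxcl9, -1.13 for Sod2, -1.06 for Iigp1, -0.87 for Hsd11b1 and -0.71 for Lbp.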

How the results depend on the processing

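The main counts, 1332 higher and 1252 lower, stayed within 1.5 times under every setting tried except 1: without the 3 deepest 24 h libraries (replicates 1, 2 and 5, chosen after seeing the data) 822 genes were higher, of which 798 were among the 1332. That setting also gave 518 higher and 474 lower from 12 h to 24 h, and 215 positive and 207 negative differences between temperatures. With only the libraries of the groups compared in the fit, 1088 genes were higher and 1208 lower at 24 h than at 0 h. In that setting, 339 differences between temperatures were positive and 213 negative. With 1 library left out at a time, 1172 to 1279 genes were higher and 1036 to 1191 lower, from 12 h to 24 h 798 to 983 were higher and 610 to 782 lower, and 331 to 559 differences between temperatures were positive and 257 to 417 negative. Fewer libraries enter these fits; no other cause was tested. Upper-quartile rescaling moved the median of all genes from -0.03 to 0.08 and gave 1581 higher and 1050 lower.

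Without the 3 deepest 24 h libraries, counts of 28 lists and directions moved by more than 1.5 times: the number higher went from 2 to 1 for bile acid synthesis and transport, from 5 to 2 for cell cycle and DNA replication, from 3 to 1 for circadian clock, from 1 to 0 for conjugating enzymes and drug transporters, from 9 to 4 for constitutive proteasome, from 5 to 3 for fatty acid and triglyceride synthesis, from 8 to 3 for heat shock proteins and chaperones, from 5 to 3 for hepatocyte transcription factors, from 1 to 0 for liver sinusoidal endothelial markers, from 6 to 3 for MHC class I and immunoproteasome, from 13 to 6 for nuclear respiratory chain and ATP synthase, from 12 to 7 for ribosome biogenesis and translation factors and from 16 to 10 for urea cycle and amino acid catabolism. With that setting, the number lower went from 4 to 2 for cell cycle and DNA replication, from 2 to 0 for constitutive proteasome, from 3 to 1 for erythroid and platelet markers, from 9 to 5 for fatty acid oxidation and ketogenesis, from 1 to 0 for growth arrest, apoptosis and survival, from 1 to 0 for hepatocyte transcription factors, from 6 to 2 for liver sinusoidal endothelial markers, from 1 to 0 for lymphocyte and NK cell markers, from 5 to 3 for major urinary proteins, from 1 to 2 for MHC class I and immunoproteasome, from 1 to 0 for MHC class II, from 6 to 3 for nuclear respiratory chain and ATP synthase, from 8 to 5 for periportal hepatocyte genes, from 2 to 1 for ribosome biogenesis and translation factors and from 7 to 2 for stellate cell and matrix markers. With upper-quartile rescaling, the number higher went from 9 to 15 for constitutive proteasome and from 0 to 1 for major urinary proteins. With that setting, the number lower went from 1 to 0 for circadian clock, from 2 to 0 for constitutive proteasome, from 2 to 1 for cytokines and chemokines, from 1 to 0 for growth arrest, apoptosis and survival, from 6 to 3 for nuclear respiratory chain and ATP synthase and from 2 to 1 for ribosome biogenesis and translation factors. Of the 240 genes named by rule, 29 lost their call without the 3 deepest 24 h libraries and 0 did with TPM in place of signal. Signs turned only for genes not called: Gbp2 came to 0.005 with array weights, 0.22 without the 3 deepest 24 h libraries and -0.295 to 0.127 with 1 library left out; Nf1 to 0.030 with array weights, 0.013 with upper-quartile rescaling, 0.152 without the 3 deepest and -0.329 to 0.149 with 1 library left out; Hbp1 and Cirbp to 0.43 and 0.33 without the 3 deepest. Samples with the same replicate number did not deviate together (r -0.07 to 0.05 over 5 pairs, with 1 pair correlating best with its own number). No pairing by number was seen, though 5 such correlations cannot exclude a weak one. With the replicate block, 1324 genes were higher and 1253 lower, 919 higher and 730 lower from 12 h to 24 h, and 501 differences between temperatures were positive and 389 negative. Depth limits the low end: at 0 h a signal under 3.45 to 5.05 rests on fewer than 3 reads.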

Other observations

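The 24 h libraries differed among themselves in metabolic genes, a pattern noticed after the values were seen. In replicates 1 to 5, Bhmt had 5820.0, 2265, 7879, 1460.3 and 6117 and Enho 47.8, 16.2, 42.0, 19.2 and 48.8, with replicates 2 and 4 lowest for Bhmt. Igfbp1 had 462, 1674, 368, 2218 and 580.1, with replicates 2 and 4 highest, and Cd14 was highest in replicate 4 (values above). The replicates differ in estimated depth, and its part in this was not tested.

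Of the 15 (of 21 listed) circadian clock genes tested, 3 were higher and 1 lower at 24 h, against 15.3% and 14.4% of all genes. At 0 h, 3 of these 15 averaged under 5 at both temperatures and passed the filter through groups after LPS. Per1, a clock gene that also responds to glucocorticoid, went from 0.203 ± 0.45 to 9.79 ± 5.66 (log2 difference 3.04 ± 0.45), from a 0 h mean under 3 reads. The number lower was 0 without 0 h replicate 1, 2 without 0 h replicates 4 or 5 or 24 h replicates 3, 4 or 5, 3 without 0 h replicate 2. Of the 28 (of 34 listed) growth arrest and survival genes tested, 9 were higher and 1 lower. In this list, 3 of the 28 averaged under 5 at 0 h at both temperatures and passed the filter through groups after LPS. The TNF receptor Tnfrsf1a rose from 9.11 ± 1.11 to 27.2 ± 3.61 (log2 difference 1.48 ± 0.20). Leaving out 1 library changed the number lower to 0 without 0 h replicates 2, 3 or 5 or 24 h replicates 1, 4 or 5.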
